A study of Homo sapiens with 14 samples.

Results

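The 10 chemokine and inflammatory cytokine genes, CCL3, CCL4, CCL4L2, CXCL8, CXCL2, CXCL3, CCL2, TNF, IL1B and IL1RN, were followed in OCI-AML2 cells, a line grown from human acute myeloid leukaemia. The 10 genes were taken by symbol from a table of read counts for 58037 genes, and each was found once. The treated cells carried the RUNX1 stop codon R174* on 1 of the gene's alleles and were given 100 nM homoharringtonine (HHT), a drug that blocks the elongation step of translation, for 8 h. Their controls carried the same R174*/wt genotype, and the wild-type cells were the parent line with the Runx1wt/wt genotype and no treatment in the labels. Treated and control total RNA came from 2 mutant lines, G7 and F3, with 2 libraries each per condition, and wild-type total RNA came from 2 libraries. A second assay, RiboLace, pulls down RNA on active ribosomes. It was applied to untreated F3 and to the parent line, with 2 libraries each. RUNX1 encodes a transcription factor of blood cell development. Only 2 mutant lines and 1 parent line were used, and no wild-type cells were given HHT. The treatment label of the mutant controls says 8 h and the protocol names DMSO, whereas their description says 0 h, as for wild type, so HHT and time in culture may be mixed. Genotype cannot be told apart from any difference between the mutant controls' handling and that of the untreated parent.

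Chemokines are small secreted proteins that bind G-protein-coupled receptors on leukocytes and guide their migration. CCL3 and CCL4 draw monocytes and T cells, CCL2 draws monocytes through CCR2, and CXCL8, CXCL2 and CXCL3 draw neutrophils through CXCR2. TNF and IL1B encode cytokines that start inflammatory signalling through NF-kB and MAP kinases, and IL1RN encodes the antagonist that occupies the IL-1 receptor without signalling. Monocytes and macrophages are a main source of all of them. Many of these mRNAs are short-lived and carry repeats of ATTTA in the 3′ UTR, where RNA-binding proteins such as ZFP36 attach.

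Those repeats were found in 9 of the 10 members' 3′ UTRs in GENCODE 29 transcripts, and were absent from that of IL1RN. CXCL2 had 10 copies of ATTTA, TNF and CXCL8 9 each, CXCL3 7, IL1B 6, CCL3 4, CCL4 2, and CCL4L2 and CCL2 1 each. The median over 19016 coding genes was 1.34 copies per kb of 3′ UTR, against 11.3 in TNF, 9.84 in IL1B, 9.62 in CCL3 and 7.19 in CXCL8. CXCL2 was highest at 13.9 copies per kb and CXCL3 was at 10.4, although neither was detected in any group. CCL4 was at 6.47. CCL2, at 2.66, and CCL4L2, at 2.20 copies per kb, were nearer the median. Among genes whose 3′ UTR was within 20% of the member's length, 0.196% had at least as many copies as TNF, 1.55% as IL1B, 2.65% as CXCL8 and 3.31% as CCL3, but 43.8% as CCL2 and 48.7% as CCL4L2. The share was 0.0486% for CXCL2, 0.897% for CXCL3 and 15% for CCL4. The longer element TTATTTATT occurred in 5 of the 10 members (TNF, CXCL2, IL1B, CXCL8 and CXCL3), against 7.16% of those coding genes. A stretch of 30 bases is shown from 4 members that were higher after HHT, in GRCh38, with ATTTA in capitals. They are chr6:31577999-31578028 on the plus strand for TNF, chr4:73743108-73743137 on the plus strand for CXCL8, chr17:36088492-36088521 on the minus strand for CCL3 and chr2:112830003-112830032 on the minus strand for IL1B.
TNF: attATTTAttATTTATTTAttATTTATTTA
CXCL8: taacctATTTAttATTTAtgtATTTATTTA
CCL3: acttaaattttaATTTATTTAtactATTTA
IL1B: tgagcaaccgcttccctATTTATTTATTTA
The repeats overlap in all 4 stretches, most densely in TNF. The presence of the letters does not show that a protein binds them.

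RefSeq promoters of GRCh38.p14 matched 7 of the 10 members. The 150 bases before the RefSeq start are shown for 4 of them, because CXCL8 and TNF were the most abundant members per length, and CXCL2 and CXCL3 were not detected. Capitals mark matches, on either strand, to AP-1 (TGANTCA), the NF-kB core (GGNNNTTCC) and the TATA box (TATAAA), none of which overlap here. The windows are chr4:73740419-73740568 on the plus strand for CXCL8, chr6:31575415-31575564 on the plus strand for TNF, chr4:74099196-74099345 on the minus strand for CXCL2 and chr4:74038690-74038839 on the minus strand for CXCL3.
CXCL8: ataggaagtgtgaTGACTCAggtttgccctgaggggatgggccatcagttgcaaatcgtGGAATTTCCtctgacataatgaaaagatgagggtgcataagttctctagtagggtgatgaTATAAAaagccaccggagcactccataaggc
TNF: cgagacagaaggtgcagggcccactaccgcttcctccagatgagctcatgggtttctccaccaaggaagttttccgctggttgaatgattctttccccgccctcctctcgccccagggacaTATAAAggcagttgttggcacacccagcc
CXCL2: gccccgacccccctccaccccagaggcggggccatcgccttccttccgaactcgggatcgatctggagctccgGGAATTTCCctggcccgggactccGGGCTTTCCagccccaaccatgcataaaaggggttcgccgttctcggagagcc
CXCL3: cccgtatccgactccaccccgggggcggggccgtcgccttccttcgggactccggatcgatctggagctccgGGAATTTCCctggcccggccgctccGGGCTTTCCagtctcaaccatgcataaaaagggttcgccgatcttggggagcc
CXCL8 and both undetected CXC genes share the letters GGAATTTCC. Over the full 250 bases before the start, the NF-kB core occurred in 3 of the 7 members (17.1% of 35116 promoters), AP-1 in 2 (CXCL8 and IL1RN, 6.57% of promoters) and the TATA box in 3 (CCL3, CXCL8 and TNF, 10.7%). These matches describe letters, not bound sites.

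Total RNA libraries held 20142280 to 21925693 counts after HHT, 19250789 to 21334260 in mutant controls and 19296906 to 21138358 in wild type. RiboLace libraries were shallower, at 465052 to 1192811 counts in F3 and 1054581 to 2034796 in wild type. RUNX1 was read at 174.3 ± 3.58 CPM (counts-per-million) in G7 and 144.9 ± 2.03 in F3 after HHT, at 123 ± 11.6 in G7 and 80.9 ± 2.77 in F3 controls, and at 135 ± 7.45 in wild type (SD, n = 2 each), and gene counts do not show which allele was read. Myeloid markers fitted the labelled line in part, since SPI1, CD33, PTPRC, LYZ and MPO were present in every total RNA library whereas ANPEP had 8 reads at most. Of the 9 myeloid markers, 7 reached 10 reads in a library after HHT and 8 in mutant controls and in wild type. Their summed level was 956.2 to 1324 CPM after HHT, 782.9 to 1090 CPM in mutant controls and 1133 to 1169 CPM in wild type. The 4 T and NK cell genes stayed under 10 reads in every total RNA library, the B cell gene MS4A1 had at most 1 read, and HBB, HBA1, COL1A2 and EPCAM had 0. Other markers moved with treatment and genotype. The summed level of ELANE, PRTN3 and AZU1, neutrophil granule genes, was 1615 to 1768 CPM after HHT, 5063 to 6440 CPM in mutant controls and 1993 to 2518 CPM in wild type. PECAM1 was read at 16.4 to 19.8 CPM after HHT, 149 to 175 CPM in mutant controls and 88.1 to 100.4 CPM in wild type. The part of these shifts in the results that follow was not tested.

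A gene is called detected in a group here when each of its libraries held at least 10 reads. After HHT, 8 of the 10 members were detected, in mutant controls 4 (CXCL8, TNF, IL1B and IL1RN) and in wild type 5 (these 4 and CCL2). In RiboLace, TNF alone was detected in F3, and CXCL8 and TNF in wild type. CXCL2 and CXCL3 were detected in no group: CXCL2 had at most 5 reads in any library and CXCL3 at most 4. CXCL2 had 9 reads summed over the 4 HHT libraries and 6 over the 4 controls, a ratio of 1.27 with an exact 95% interval of 0.403 to 4.32, so no difference was detectable at this depth. CXCL3 had 6 reads after HHT and 1 in controls, a ratio of 5.07 with an interval of 0.615 to 233. Intervals of this kind cover counting error alone.

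**Figure D1:**
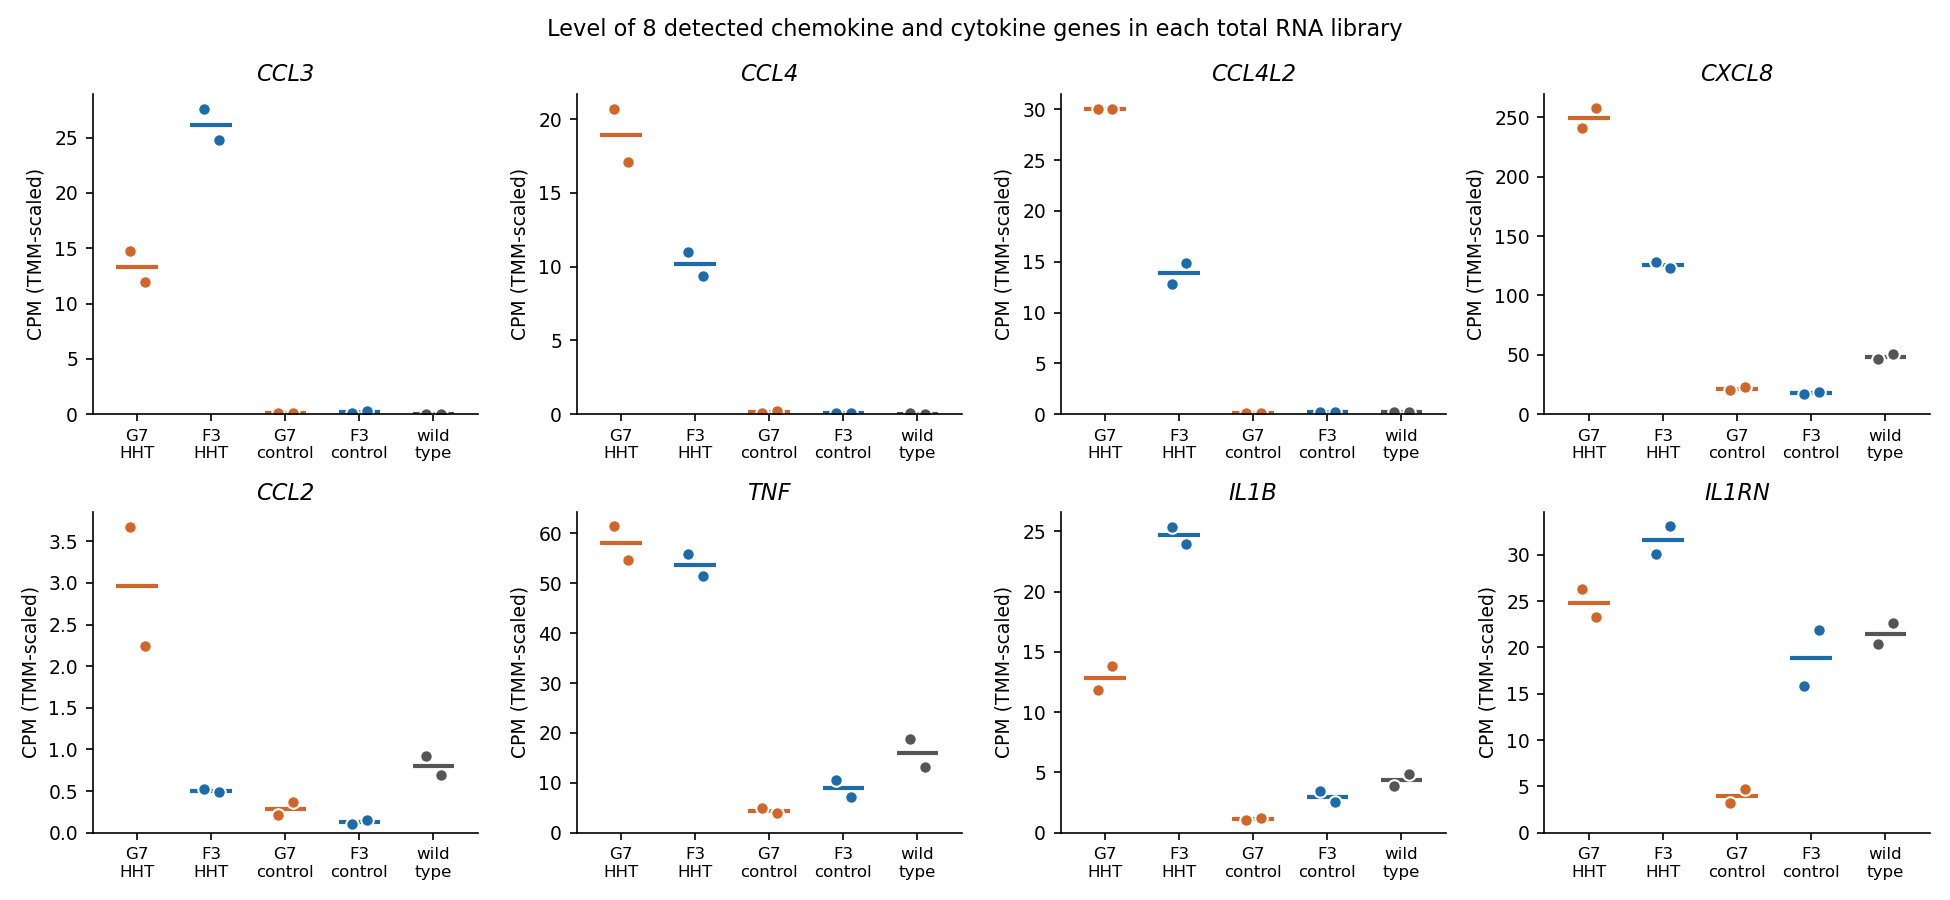
Level of the 8 detected members in each total RNA library, in CPM on a linear axis with its own scale per gene; dots are libraries and bars the mean of 2. Each gene's HHT libraries lie above its control libraries of the same line. For CCL3, CCL4, CCL4L2 and CCL2 this follows from their being detected in mutant libraries only after HHT. Of all genes tested, 39.9% were called higher after HHT, and the share with separate libraries was not counted. For CCL2 both wild-type dots lie above the F3 HHT dots.

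After HHT, CCL3, CCL4 and CCL4L2 were present at 9.38 to 30.1 CPM in mutant cells that held between 1 and 5 reads of each gene per control library. CXCL8, TNF and IL1B were about 3 log2 units higher after HHT than in controls, CCL2 was 2.91 log2 units higher and IL1RN 1.45 log2 units higher. In edgeR's quasi-likelihood test, adjusted over 13621 genes, the 4 members detected in every library (CXCL8, TNF, IL1B and IL1RN) were all higher, where 39.9% of all genes tested were higher and 79.2% were called in either direction. CCL3, CCL4, CCL4L2 and CCL2 entered the test through their HHT libraries alone and so had to differ, and their values are given as a description. Levels are relative to all other RNA in a library, and fewer expressing cells cannot be told apart from less RNA per cell.

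CCL3 (ENSG00000277632.1, chr17:36088256-36090169, minus strand) was read at 14.7 and 11.97 CPM in G7 and 27.6 and 24.8 CPM in F3 after HHT, against 0.105 and 0.104 CPM in G7 and 0.156 and 0.252 CPM in F3 controls. In wild type it had 1 read in 1 library and 0 in the other. HHT and control libraries did not overlap, and among the treated ones both F3 libraries were above both G7 libraries. The log2 fold change was 6.88 ± 0.19 (SE). From 1806 reads after HHT and 12 in controls, the ratio of rates was 127 with an exact 95% interval of 72.55 to 246.

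CCL4 (ENSG00000275302.1, chr17:36103590-36105621, plus strand) lies 13.4 kb beyond CCL3, on the other strand. It was read at 20.7 and 17.1 CPM in G7 and 10.97 and 9.38 CPM in F3 after HHT, against 0.0526 and 0.208 CPM in G7 and 0.0520 and 0.101 CPM in F3 controls. In CCL4 the order of the lines was the other way round from CCL3, with both treated G7 libraries above both treated F3 libraries. The log2 fold change was 6.99 ± 0.24. Since the F3 controls held only 3 reads, the ratio in that line, 132, had an exact 95% interval of 45.0 to 645.

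CCL4L2 (ENSG00000276070.4, chr17:36210924-36212878, plus strand) is a near-copy of CCL4. It was read at 30.1 and 29.99 CPM in G7 and 12.8 and 14.9 CPM in F3 after HHT, against 0.105 and 0.156 CPM in G7 and 0.260 and 0.202 CPM in F3 controls and 0.218 and 0.197 CPM in wild type. The HHT libraries did not overlap with the mutant controls or wild type, which overlapped with each other. The treated G7 libraries were again above those of F3. Its log2 fold change was 6.79 ± 0.22. From 2012 reads after HHT and 14 in controls, the ratio of rates was 121 with an exact 95% interval of 72.1 to 222.

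These genes lie in a cluster with duplicated copies. CCL3L1 (chr17:36194869-36196758, minus strand), a copy of CCL3, lies 14.2 kb from CCL4L2. It was read at 47.5 ± 1.54 CPM in G7 and 62.2 ± 4.52 CPM in F3 after HHT, against 0.626 ± 0.290 CPM in G7 and 1.90 ± 0.185 CPM in F3 controls (SD, n = 2 each). The coding sequences of CCL3 and CCL3L1 were 95.7% identical, and those of CCL4 and CCL4L2 97.5%. Of 50-base stretches of CCL3 transcripts, 9.88% occurred letter for letter in CCL3L1. For CCL4 in CCL4L2 the share was 21.3%, and 5.59% for 100-base stretches. The treatment of reads from such stretches in the authors' counting is not given in the sources used here. The split within each pair is uncertain.

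Of the reads assigned to CCL3 or CCL3L1 after HHT, CCL3 took 23.3% (exact 95% interval 21.1 to 25.6%) and 20.5% (18.4 to 22.7%) in G7, and 31.9% (29.84 to 33.99%) and 27.5% (25.5 to 29.5%) in F3. CCL4 took 40.8% and 36.3% of the reads of CCL4 and CCL4L2 in G7, and 46.1% and 38.7% in F3. With the copies summed, the log2 fold change of HHT over control was 5.67 for CCL3 with CCL3L1 (edgeR adjusted p = 1.06e-12). For CCL4 with CCL4L2 it was 6.89, a description only, since their summed reads were 3 to 7 per control library. CCL3's value is thus smaller when the copies are added.

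The opposite order of the lines in the 2 families did not depend on splitting the copies. Summed, the CCL3 copies reached 63.4 and 58.4 CPM in G7 and 86.6 and 90.1 CPM in F3 after HHT, whereas the CCL4 copies reached 50.8 and 47.1 CPM in G7 and 23.8 and 24.3 CPM in F3. For each read of the CCL3 copies there were 0.801 and 0.806 reads of the CCL4 copies in G7, and 0.275 and 0.269 in F3. The difference between the treated lines, G7 over F3, was -0.51 log2 units for the CCL3 copies (edgeR adjusted p = 0.000674) and 1.05 for the CCL4 copies (adjusted p = 2.25e-06). This comparison of treated lines was added after the values had been seen.

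**Figure D2:**
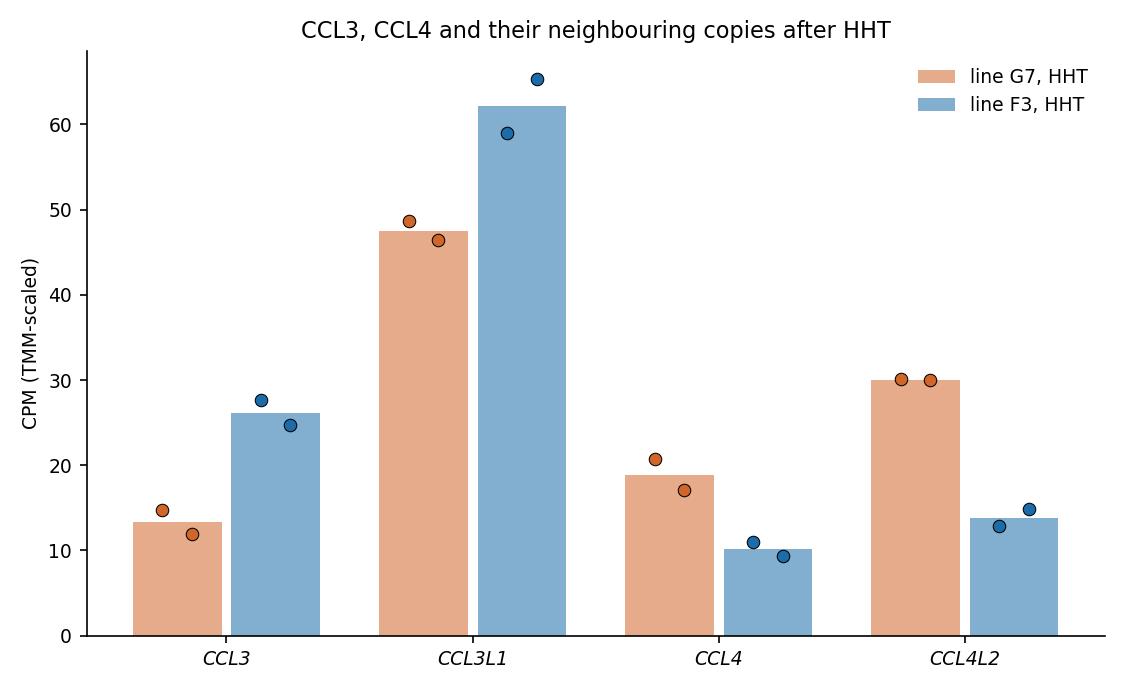
CPM of CCL3, CCL4 and their neighbouring copies in HHT libraries of lines G7 and F3; bars are means of 2 libraries and dots the libraries. G7 bars are below F3 bars for CCL3 and CCL3L1 and above them for CCL4 and CCL4L2.

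CXCL8 (ENSG00000169429.10, chr4:73740506-73743716, plus strand), the gene of interleukin 8, was read at 241 and 258 CPM in G7 and 128 and 123 CPM in F3 after HHT, against 20.7 and 22.6 CPM in G7 and 16.7 and 18.6 CPM in F3 controls and 46.3 and 50.6 CPM in wild type. Every treated library exceeded every untreated one, and the wild-type libraries lay between the mutant controls and the treated mutants. The HHT over control log2 fold change was 3.12 ± 0.12 (edgeR adjusted p = 2.87e-11).

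TNF (ENSG00000232810.3, chr6:31575567-31578336, plus strand) was read at 61.4 and 54.6 CPM in G7 and 55.8 and 51.4 CPM in F3 after HHT, against 5.001 and 3.90 CPM in G7 and 10.6 and 7.27 CPM in F3 controls and 18.9 and 13.1 CPM in wild type. The treated libraries of the 2 lines overlapped, whereas those of the controls did not. For HHT over control the log2 fold change was 3.02 ± 0.19 (edgeR adjusted p = 3.29e-09).

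IL1B (ENSG00000125538.11, chr2:112829751-112836903, minus strand) encodes interleukin-1 beta, which is made as an inactive precursor and cut by caspase-1. It was read at 11.9 and 13.8 CPM in G7 and 25.4 and 23.9 CPM in F3 after HHT, against 1.05 and 1.25 CPM in G7 and 3.43 and 2.52 CPM in F3 controls and 3.92 and 4.87 CPM in wild type. G7 was below F3 in both conditions, without overlap. IL1B's log2 fold change for HHT over control was 3.14 ± 0.14 (edgeR adjusted p = 8.39e-11).

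IL1RN (ENSG00000136689.18, chr2:113107214-113134016, plus strand), the receptor antagonist gene, lies 270.3 kb from IL1B. It was read at 26.3 and 23.3 CPM in G7 and 30.1 and 33.1 CPM in F3 after HHT, against 3.21 and 4.73 CPM in G7 and 15.8 and 21.9 CPM in F3 controls and 20.4 and 22.6 CPM in wild type. The F3 controls stood close to wild type, and the G7 controls were far below both. The log2 fold change over both lines was 1.45 ± 0.28 (edgeR adjusted p = 0.000291), the smallest of the 8.

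CCL2 (ENSG00000108691.9, chr17:34255218-34257203, plus strand) stayed scarce. It was read at 3.67 and 2.24 CPM in G7 and 0.524 and 0.485 CPM in F3 after HHT, against 0.211 and 0.364 CPM in G7 and 0.104 and 0.151 CPM in F3 controls and 0.925 and 0.689 CPM in wild type. The treated F3 libraries, at 12 and 11 reads, were below both wild-type libraries, at 17 and 14 reads. The log2 fold change over both lines was 2.91 ± 0.37.

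Per kb of exon, CXCL8 was the most abundant member in each of the 3 groups of total RNA, at 82.5 CPM per kb after HHT, 8.65 in mutant controls and 21.3 in wild type. TNF came next, at 33.3, 3.99 and 9.54 CPM per kb in the same groups. After HHT there followed CCL4L2 at 15.7, CCL3 at 13.2, IL1RN at 8.66, CCL4 at 7.15, IL1B at 6.05 and CCL2 at 0.872 CPM per kb. In mutant controls and in wild type the next were IL1RN (3.51 and 6.60 CPM per kb) and IL1B (0.667 and 1.42). This order over both lines hides a difference between them. CCL4L2 was at 21.5 and 21.5 CPM per kb and CCL3 at 9.87 and 8.01 in G7 after HHT, whereas in F3 CCL4L2 was at 9.19 and 10.7 and CCL3 at 18.5 and 16.6. Below the leading chemokine of each line, the libraries of CCL4 overlapped with those of CCL3 and these with IL1RN in G7, and those of CCL4L2 and IL1RN overlapped in F3. In controls TNF was at 2.98 and 2.32 CPM per kb and IL1RN at 0.986 and 1.45 in G7, without overlap, whereas in F3 TNF at 6.33 and 4.34 overlapped with IL1RN at 4.86 and 6.73. Exon length joined the exons of all annotated transcripts. For CCL4 (2032 bases) and CCL2 (1986 bases) it equals the whole gene span, so the order per kb depends on the annotation.

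Both lines responded, and the sizes differed for some genes. CXCL8, TNF, IL1B and IL1RN, detected in every library, were higher after HHT in G7, where 37.3% of all genes were higher, and in F3, where 38.1% were. CCL2 entered the test through its HHT libraries alone, so its value in F3 is a description (log2 fold change 1.86 ± 0.66). Its call there did not hold when F3 control replicate 1, F3 control replicate 2 or F3 HHT replicate 1 was left out.

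The difference in response between the lines, tested as an interaction in edgeR, was called for 3 of 8 members, against 4.20% of the 13621 genes, and in each the response was higher in G7, as for 2.14% of genes. IL1RN had log2 fold changes of 2.58 ± 0.18 in G7 and 0.67 ± 0.14 in F3, a difference of 1.91 ± 0.23 (adjusted p = 0.000592). TNF had 3.65 ± 0.16 in G7 and 2.51 ± 0.14 in F3, a difference of 1.13 ± 0.22 (adjusted p = 0.00949). That of TNF did not pass without F3 control replicate 1 (0.86, adjusted p = 0.104). CXCL8 had 3.47 ± 0.09 in G7 and 2.76 ± 0.09 in F3, a difference of 0.71 ± 0.12 (adjusted p = 0.00453).

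These 3 differences came from different sides of the comparison. The higher CXCL8 response in G7 went with a higher treated level in G7, by 1.01 ± 0.08 log2 units over F3 (edgeR adjusted p = 2.57e-07), whereas control levels differed by 0.30 ± 0.12 (adjusted p = 0.125). For IL1RN and TNF the treated lines differed by -0.32 ± 0.14 (adjusted p = 0.106) and 0.14 ± 0.12 (adjusted p = 0.453), G7 over F3, and the G7 controls were lower than the F3 controls. The contrasts share libraries, so they are given side by side and are not independent.

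IL1B had 3.41 ± 0.20 in G7 and 2.98 ± 0.16 in F3, and the difference of 0.44 did not pass (edgeR adjusted p = 0.460). CCL4L2 had 7.72 ± 0.24 in G7 and 5.80 ± 0.24 in F3, a difference of 1.92 ± 0.67 that did not pass (adjusted p = 0.141). The by-line SEs of CCL4L2 are too small. From its reads, the ratio was 230 in G7 (exact 95% interval 98.2 to 708) and 60.1 in F3 (31.5 to 132). CCL2 differed by 1.42 (adjusted p = 0.484), CCL4 by 0.18 (adjusted p = 0.965) and CCL3 by -0.02 (adjusted p = 0.997). For these 4 chemokines the control libraries held 1 to 7 reads each, so the ratios carry wide counting error and an equal response is not shown. Leaving out single libraries or adding the copies turned the sign of the CCL3 difference, and without F3 control replicate 2 or G7 control replicate 3 the CCL4 difference also changed sign.

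**Figure D3:**
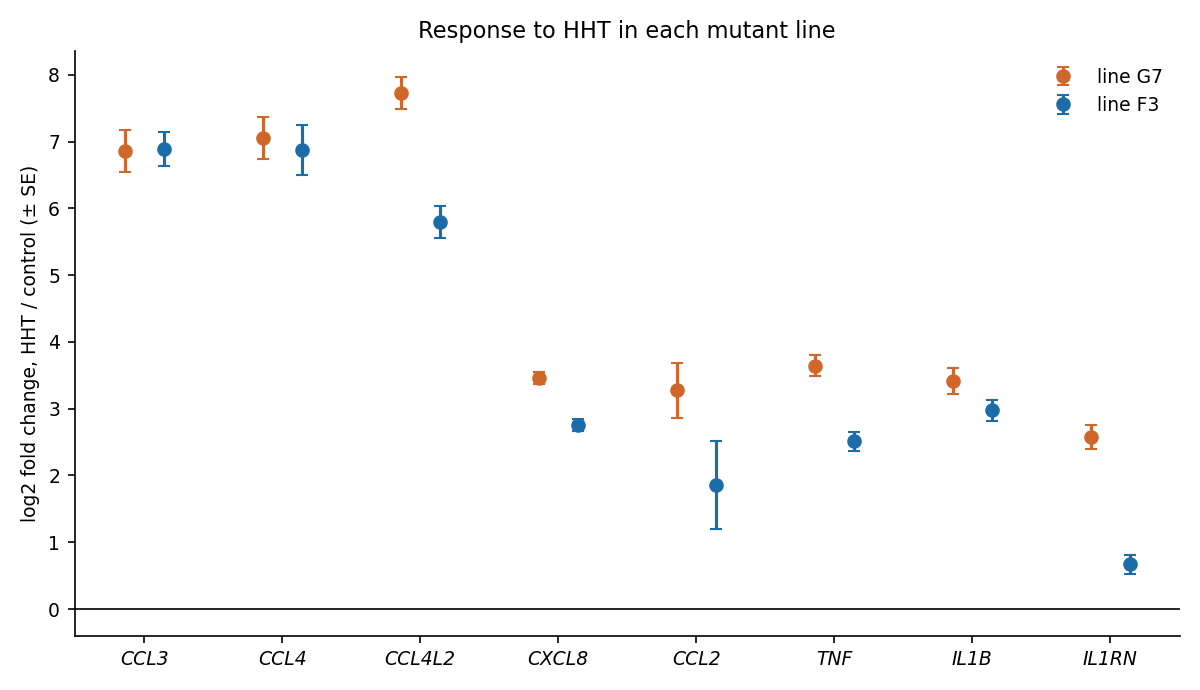
log2 fold change of HHT over control for 8 members in lines G7 and F3. Error bars are approximate standard errors, too small for CCL3, CCL4 and CCL4L2, whose controls held few reads. The gap of G7 over F3 is widest for CCL4L2 (7.72 and 5.80) and IL1RN (2.58 and 0.67); the difference passed the test for IL1RN, TNF and CXCL8.

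Compared directly after HHT, G7 was higher than F3 for CXCL8, CCL2 (2.56 ± 0.35, edgeR adjusted p = 8.86e-05), CCL4 (0.92 ± 0.15, adjusted p = 0.000421) and CCL4L2 (1.14 ± 0.11, adjusted p = 3.43e-06). It was lower for CCL3 (-0.95 ± 0.13, adjusted p = 8.25e-05) and IL1B (-0.92 ± 0.13, adjusted p = 0.000102). That is 6 of 8 members called, where 22.0% of all genes tested were (10.6% higher and 11.4% lower). The comparison was added after the values had been seen, so this count is a description only. CCL4 and CCL4L2 are near-copies with an uncertain split of reads.

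Before HHT, G7 controls were lower than F3 controls for IL1RN (-2.24 ± 0.20, edgeR adjusted p = 7.48e-07), IL1B (-1.36 ± 0.29, adjusted p = 0.00416) and TNF (-0.997 ± 0.23, adjusted p = 0.00723), 3 of the 5 members tested, where 7.03% of 13949 genes were lower. CXCL8 and CCL2 did not pass, at 0.30 ± 0.12 (adjusted p = 0.125) and 1.14 ± 0.74 (adjusted p = 0.366). Without F3 control replicate 1, the calls of TNF (adjusted p = 0.117) and IL1B (adjusted p = 0.0618) were lost.

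Mutant controls had less CXCL8 than wild type. CXCL8 averaged 19.7 ± 2.56 CPM in mutant controls (SD, n = 4) and 48.4 ± 3.08 CPM in wild type (SD, n = 2). Its log2 fold change, mutant over wild type, was -1.30 ± 0.13 (edgeR adjusted p = 0.00141). It was lower in 4 of 4 mutant libraries than in both wild-type ones. This was 1 of the 4 members detected in every library of both groups, where 2.07% of 13949 genes were lower and 4.56% were called in either direction.

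TNF, CCL2, IL1B and IL1RN did not pass when the lines were taken as 1 group. TNF averaged 6.69 ± 2.96 CPM in mutant controls and 16.0 ± 4.09 CPM in wild type (log2 fold change -1.25 ± 0.33, edgeR adjusted p = 0.0641). CCL2, which entered the test through wild type, averaged 0.207 ± 0.113 CPM in mutant controls and 0.807 ± 0.167 CPM in wild type (-1.93 ± 0.48, adjusted p = 0.0565). IL1B averaged 2.06 ± 1.12 CPM in mutant controls and 4.40 ± 0.676 CPM in wild type (-1.09 ± 0.41, adjusted p = 0.155), and IL1RN 11.4 ± 8.97 CPM in mutant controls and 21.5 ± 1.59 CPM in wild type (-0.91 ± 0.59, adjusted p = 0.410). Each of these SDs in the mutant spans the difference between the lines. TNF passed in DESeq2 (adjusted p = 0.00238), with no filter on low counts, and without F3 control replicate 1 (0.0141). CCL2 passed with no filter (0.00921) and without G7 control replicate 4 (0.0420). IL1B (0.00190) and IL1RN (2.07e-06) also passed with no filter. When the contrast was taken as the mean of the lines, TNF (3.79e-05), CCL2 (0.00510), IL1B (0.000518) and IL1RN (9.28e-06) all passed. That fit leaves the difference between the lines out of the error, so its p-values cover only the spread between libraries of a line.

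CCL3, CCL4 and CCL4L2 were at 0 to 5 reads in every mutant control and wild-type library. CCL3 had 12 reads over the 4 mutant controls and 1 read over the 2 wild-type libraries, a ratio of 6.01 with an exact 95% interval of 0.889 to 257. CCL4 had 8 reads and 1 read in the same groups, a ratio of 4.01 with an interval of 0.537 to 178. Both intervals include 1, whereas in F3 alone CCL3 had 8 reads, against 1 in wild type, a ratio of 7.93 with an interval of 1.06 to 352.

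By line, the 4 members detected in every library were all lower in G7 controls than in wild type, where 8.82% of genes were lower. The log2 fold changes in G7 were -2.43 ± 0.20 for IL1RN (edgeR adjusted p = 1.39e-07), -1.93 ± 0.27 for IL1B (8.25e-05), -1.84 ± 0.22 for TNF (1.31e-05) and -1.16 ± 0.12 for CXCL8 (2.15e-06), while CCL2 at -1.46 ± 0.51 did not pass (0.0583). In F3, 2 of these 4 were lower, where 8.54% of genes were, namely CXCL8 at -1.46 ± 0.12 (2.66e-07) and TNF at -0.84 ± 0.20 (0.00816). CCL2, which entered the test through wild type, was at -2.59 ± 0.60 in F3 (0.00653). IL1B at -0.57 ± 0.23 (0.105) and IL1RN at -0.19 ± 0.16 (0.463) did not pass in F3. Both lines were set against the same 2 wild-type libraries. In F3 the TNF call was lost without wild-type replicate 1 (0.0567) or F3 control replicate 2 (0.125), and the CCL2 call without wild-type replicate 1 (0.0557) or F3 control replicate 1 (0.0733).

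**Figure D4:**
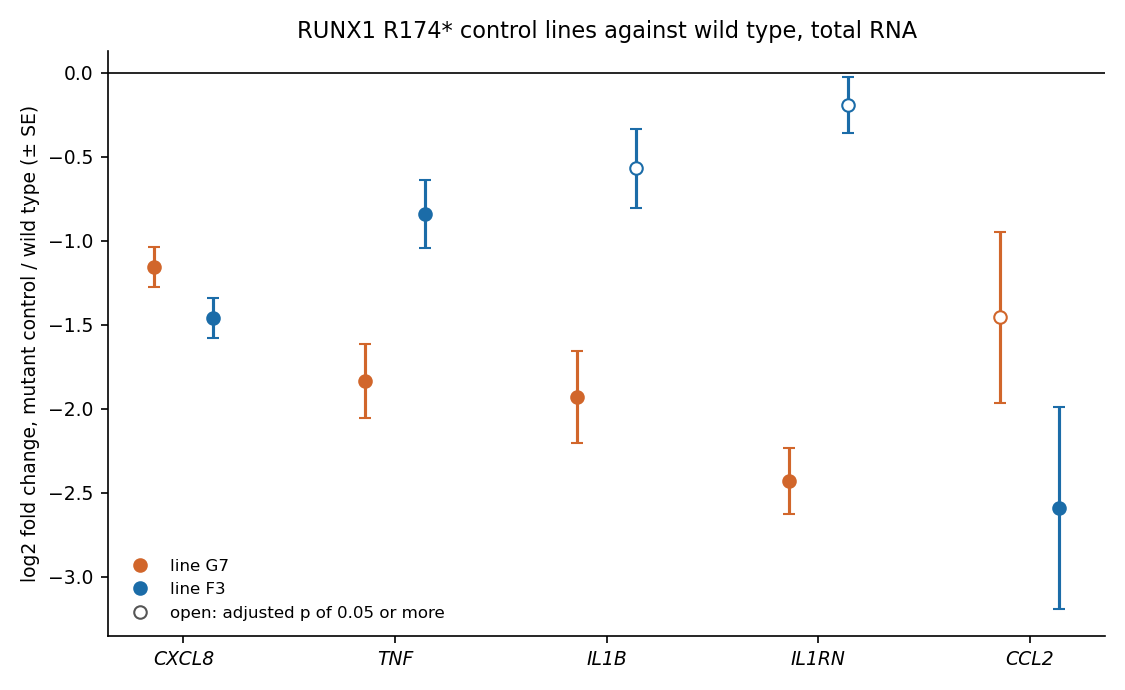
log2 fold change of each mutant control line over wild type in total RNA for the 5 members tested; error bars are approximate standard errors and open symbols did not pass. CXCL8 and TNF are below 0 with filled symbols in both lines, and IL1RN is at -2.43 in G7 and -0.19 in F3.

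In ribosome-bound RNA, TNF was lower in mutant F3 than in wild type. TNF was read at 28.9 and 21.6 RiboLace CPM (35 and 11 reads) in F3 and at 72.6 and 66.4 RiboLace CPM (129 and 72 reads) in wild type. Mutant over wild type, this was a log2 fold change of -1.32 ± 0.32 (edgeR adjusted p = 0.00801). The groups did not overlap, 1 of 2 members tested was called, and 5.59% of 9805 genes were lower. The call was lost without F3 RiboLace replicate 2 (-1.20, adjusted p = 0.0971), which leaves 1 F3 library assumed to vary like the others. CXCL8 was read at 10.7 and 9.82 RiboLace CPM in F3 and 25.3 and 12.9 in wild type, and -0.82 ± 0.48 did not pass (adjusted p = 0.273). IL1B had 4 and 2 reads in F3 and 15 and 6 in wild type. IL1RN had 3 and 0 reads in F3 and 21 and 3 in wild type, and CCL2 had 0 and 0 in F3 and 7 and 3 in wild type. These genes did not pass the filter on low counts. From the summed reads, the ratio of F3 to wild type was 0.208 for IL1RN (exact 95% interval 0.0400 to 0.684) and 0.475 for IL1B (0.157 to 1.22), for counting error alone. CCL3, CCL4, CCL4L2 and CXCL3 had at most 1 read in any RiboLace library.

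Related genes, listed from general knowledge, moved in both directions after HHT. Their counts stand against 39.9% of all genes tested higher and 79.2% called in either direction. A gene scarce in 1 condition could enter the test only through the other, so these counts are a description. Of 39 other chemokines in the table, 7 were tested, 4 were higher and 1 was lower, with a median log2 fold change of 0.35, against -0.0018 over all genes tested. CCL3L1 was 5.39 ± 0.17 log2 units higher, and the CXCR3 ligand CXCL10 was 3.10 ± 0.20 higher (3.17 to 10.7 CPM after HHT, 0.263 to 1.11 CPM in controls). CXCL11, another CXCR3 ligand, was 2.36 ± 0.29 higher at 0.888 to 3.00 CPM after HHT and 0.105 to 0.505 CPM in controls. CCL23 was 1.28 log2 units lower, at 0.403 to 0.743 CPM after HHT and 0.895 to 1.61 CPM in controls. CCL3L1, CXCL10 and CXCL11 passed the filter on low counts through their HHT libraries, and CCL23 through its controls. Their values are therefore a description.

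Chemokine receptors split evenly, with 3 higher and 3 lower of 7 tested (median 0.16). CXCR4, the CXCL12 receptor, fell to 39.8 to 66.8 CPM after HHT, against 347 to 475 CPM in controls (log2 fold change -3.15 ± 0.15, edgeR adjusted p = 2.18e-10). CXCR2, the receptor of CXCL8, fell to 6.22 to 6.96 CPM after HHT, against 15.4 to 16.4 CPM in controls (-1.34 ± 0.09, adjusted p = 7.10e-09). CCR2, the receptor of CCL2, was at 0 to 0.0896 CPM after HHT and 0.737 to 10.8 CPM in controls. It entered the test through its control libraries alone, so its fall is a description. CCR1, which binds CCL3, was 0.69 ± 0.09 higher (adjusted p = 6.73e-06), although its ranges of 16.7 to 74.2 CPM after HHT and 8.16 to 48.7 CPM in controls overlapped.

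In the IL-1 and TNF system, 26 genes were tested, of which 11 were higher and 11 lower, with a median of -0.05. ADAM17, the protease that sheds TNF from the membrane, rose to 119 to 165 CPM after HHT, against 41.9 to 57.4 CPM in controls (1.501 ± 0.07, edgeR adjusted p = 1.30e-10). RIPK1 (1.51 ± 0.07) and TRAF2 (1.17 ± 0.07), which act below the TNF receptor, were higher (adjusted p = 2.25e-10 and 2.29e-09). SIGIRR, an inhibitory receptor of the IL-1 family, was 1.76 log2 units lower, at 11.2 to 11.98 CPM after HHT and 31.6 to 42.6 CPM in controls (adjusted p = 3.37e-10).

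Among other cytokines and growth factors, 5 were higher and 3 lower of 10 tested (median 0.99). The EGF receptor ligands EREG (2.31 ± 0.15, edgeR adjusted p = 5.43e-09) and HBEGF (1.95 ± 0.08, adjusted p = 7.56e-11) rose, while VEGFA (-1.999 ± 0.07, adjusted p = 6.19e-12) and IL23A (-1.89 ± 0.13, adjusted p = 7.31e-09) fell.

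Regulators of inflammatory transcription and mRNA decay were higher in 26 of 31 tested and lower in 2, with a median of 1.35, against the 39.9% higher and 79.2% called among all genes. EGR1 reached 449 to 516 CPM after HHT, against 7.65 to 10.9 CPM in controls (5.59 ± 0.09, edgeR adjusted p = 2.10e-14). BCL3 (4.13 ± 0.13, adjusted p = 3.53e-12), JUN (3.63 ± 0.11, adjusted p = 4.35e-12) and ATF3 (3.30 ± 0.08, adjusted p = 7.03e-13) were also higher.

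**Figure D5:**
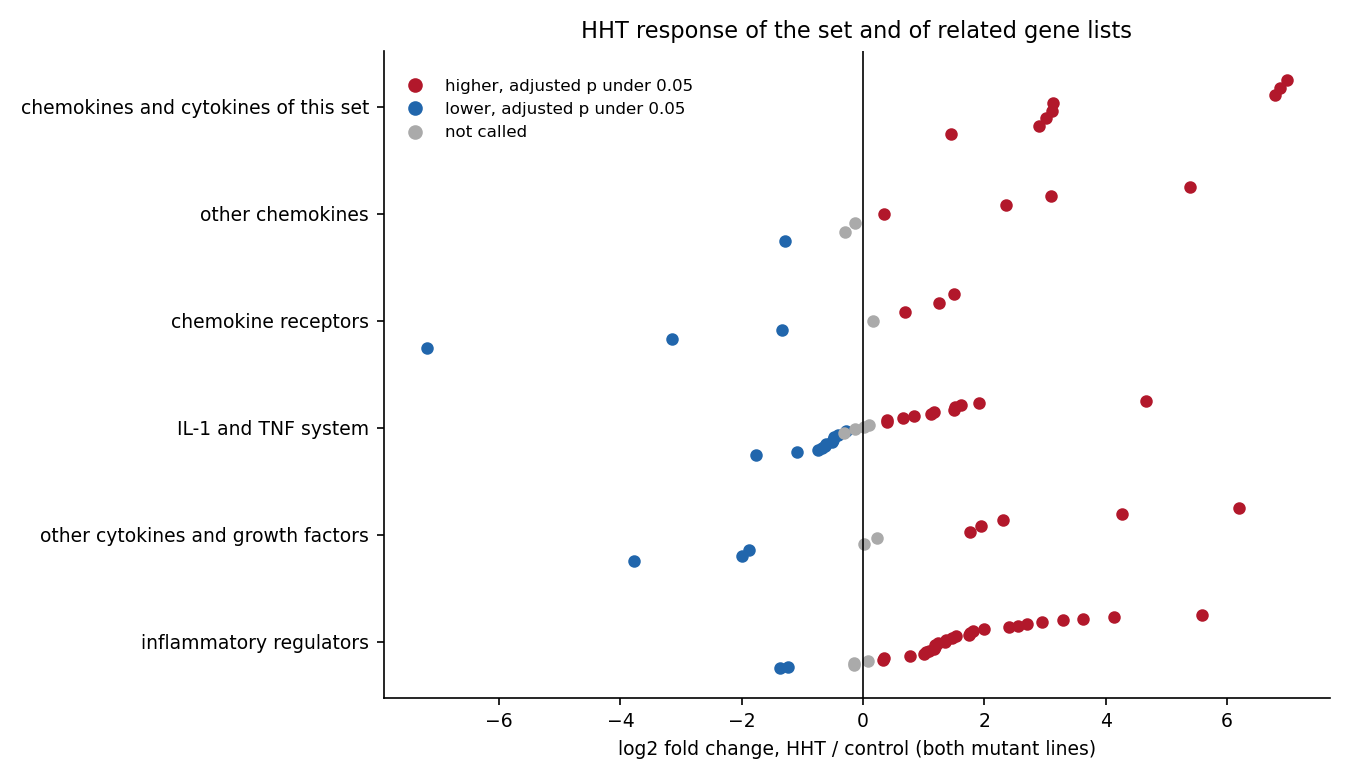
log2 fold change of HHT over control, with line as a covariate, for the members tested and for the tested genes of 5 related lists; each dot is a gene, with height within a row in order of the value. CXCL8, TNF, IL1B and IL1RN lie between 1.45 and 3.14. CCL3, CCL4, CCL4L2 and CCL2, up to 6.99, entered the test through their HHT libraries alone and so had to lie above 0. Receptors and the IL-1 and TNF system fall on both sides of 0.

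Profiles most like those of 5 members were sought among 13094 genes other than the members, by the root mean square (RMS) difference of centred log2 CPM over the 10 total RNA libraries, which share treatment and line. IL1B was nearest to GPAT3 (RMS 0.207 log2 units), ANXA1 (0.296) and BCL6 (0.375). GPAT3 was read at 12.3 CPM in G7 and 26.2 CPM in F3 after HHT, against 0.966 CPM in G7 and 2.38 CPM in F3 controls and 4.84 CPM in wild type, with the same order of the groups as IL1B. TNF was nearest to CLEC7A (0.263), HIST1H2AL (0.418) and KMO (0.432), and IL1RN to CD53 (0.398), FAM129B (0.443) and EMP1 (0.472). CXCL8 was nearest to ADAMTS5 (0.378), AC004706.3 (0.432) and RASL10A (0.432), and CCL3 to DUSP8 (0.494), TMEM217 (0.540) and PHLDA1 (0.554). DUSP8, a MAP kinase phosphatase gene, had 81.2 CPM in G7 and 134 CPM in F3 after HHT, against 1.28 CPM in G7 and 1.61 CPM in F3 controls. The nearest other member was CCL4 for CCL3 (0.708), TNF for CXCL8 (0.547), TNF for IL1B (0.429) and IL1B for IL1RN (0.867).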

How the data were processed

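Raw counts for each gene, deposited by the authors, were analysed for 14 libraries of OCI-AML2. GRCh38, STAR 2.6.0b and DESeq2 are named, with no role, per the submitters' processing notes. Counter, annotation and strandedness: not given in the sources used here. Overlapping and antisense reads therefore cannot be told apart. Of the gene IDs, 57433 matched GENCODE 29 and 604 did not. The labels do not say whether replicates were separate cultures, so p-values may measure technical spread; replicate pairs differed by more than counting noise (chi-square per degree of freedom 3.14 to 12.5).

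Tests used edgeR 4.0.16 in R 4.3.3 (filterByExpr, TMM, quasi-likelihood F-test, Benjamini-Hochberg adjustment over all genes tested, adjusted p under 0.05), separately for total RNA with and without HHT, genotype and RiboLace. Line was a covariate for HHT, and by-line values came from fits with a group per line. Libraries of a line were treated as independent. CPM are TMM-scaled within each assay, and the SE of a log2 fold change is approximate, from the F statistic. That SE is too small where control libraries held few reads, as for CCL3, CCL4 and CCL4L2. The tests were checked on simulated data. Members, lists and comparisons were chosen with earlier results of these data known. Named outside the members were up to 4 genes per list with the smallest adjusted p and a mean of at least 1 CPM in a group, and the 3 nearest profiles of 5 members.

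Title numbers of HHT and control libraries fall on the same lines. Deviations of same-numbered libraries from treatment means, which include the difference between the lines, correlated at r of 0.539 to 0.626. From line means, r was 0.392 in G7 and 0.196 in F3. Same-numbered libraries were taken as pairs in the replicate block alone, which is an alternative and not the main test. The descriptions number some of these libraries differently. Alternatives were RLE size factors, library totals, no filter, DESeq2 1.42.0, summed copies, line terms, replicate blocks and each library left out.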

Additional observations from a re-analysis of the deposited data

Results flagged for a closer look

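Line G7 and line F3 differed in their response to HHT for 3 members, by edgeR's test of the interaction between line and treatment, with G7 the larger in each. The difference, G7 minus F3, was 1.91 log2 units for IL1RN (adjusted p = 0.000592), 1.13 for TNF (adjusted p = 0.00949) and 0.71 for CXCL8 (adjusted p = 0.00453). IL1RN averaged 24.8 ± 2.18 CPM in G7 and 31.6 ± 2.17 CPM in F3 after HHT, against 3.97 ± 1.07 CPM in G7 and 18.9 ± 4.31 CPM in F3 controls (SD, n = 2 each). Among 12 sets of 4 libraries of a member, none had a library far from the others by Dixon's criterion. Each set pools 2 libraries of G7 and 2 of F3, so where the lines differ a deviating library could be hidden.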

How the results depend on the processing

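Of 781 alternative values for 62 member results, 743 kept direction and side of the threshold, 18 passed only in the alternative, 11 passed only as reported and 9 changed sign. For HHT against control, the replicate block gave CXCL8 at 3.12, as without it, and kept the calls of TNF, IL1B and IL1RN. Over all genes it called 10841, against 10793 as reported. CCL3, CCL4, CCL4L2 and CCL2 entered the test through their HHT libraries alone, so their calls are no check.

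For mutant against wild type, the count of members called, 1 as reported, was 2 with DESeq2, 3 with the replicate block (F3 libraries alone) and 3 with the crossed replicate block, 5 with no filter and 5 with line means. As described above, passes with no filter are not taken as support, and line means leave the difference between the lines out of the error. The count of genes, 636 as reported, was 1111 with DESeq2, 1655 with no filter, 2652 with the replicate block, 3994 with the crossed replicate block and 2846 with line means. The crossed pairing was added after seeing a correlation of -0.12 between same-numbered libraries. For RiboLace, genes called were 1154, and 415 with DESeq2.

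With each library left out in turn, genes called ranged from 43 (without wild-type replicate 1) to 649 for mutant against wild type (members 1 to 2), 247 to 1811 for RiboLace (members 0 to 1), 170 to 1045 for the interaction (members 2 to 3), 906 to 3216 for F3 against wild type (members 1 to 3), 793 to 2278 for G7 against F3 controls (members 1 to 3) and 1407 to 3924 for G7 HHT against F3 HHT (members 6 to 7). Fewer libraries enter these fits, and a lone library of a line was assumed to vary like the other groups. CXCL8 passed in every alternative of mutant against wild type.

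The CCL3 interaction (-0.02) turned to 0.02 with DESeq2, 0.99 with copies summed, and ranged from -0.38 to 0.29 with libraries left out, above 0 without F3 control replicate 1 (0.29), G7 control replicate 3 (0.01), F3 HHT replicate 1 (0.06) and G7 HHT replicate 4 (0.12). The CCL4 interaction (0.18) turned to -0.31 without F3 control replicate 2 and -0.44 without G7 control replicate 3, in a range up to 1.43. IL1RN in F3 against wild type (-0.19) turned to 0.03 without F3 control replicate 1, in a range of -0.44 to 0.03. None of these passed; the cause was not tested. IL1RN in G7 HHT against F3 HHT passed with no filter (adjusted p = 0.0201) and without G7 control replicate 3 (0.0462) or 4 (0.0471). Depth limits CXCL2, CXCL3, the untreated CCL3 and CCL4 families, and most members in RiboLace.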
